A study of Mus musculus with 10 samples.

Results

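A set of 9 genes of the renin-angiotensin system, Ren1, Agt, Ace, Agtr1a, Agtr1b, Agtr2, Atp6ap2, Enpep and Mas1, was read in RNA-seq of mouse kidney glomeruli, the capillary tufts that filter the blood. They were chosen by name, and all 9 were found among the 22053 gene identifiers measured. The series held 10 libraries. Of these, 5 were labelled Col4a3 wild-type and 5 were labelled Col4a3 p.G799R, a missense change in the alpha 3 chain of type IV collagen, and these are called wild type and G799R here. The series design is the comparison of these 2 genotypes. No source used here gives the zygosity, age, sex or strain of the mice or how glomeruli were isolated. Since no label ties a library to its own mouse, p-values reflect only the spread among these libraries, which may be technical.

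Renin cuts angiotensinogen to angiotensin I, and angiotensin-converting enzyme trims that peptide to angiotensin II, which narrows vessels and promotes salt retention through the type 1 receptor. In the kidney, renin is made by juxtaglomerular cells in the wall of the arteriole that feeds each glomerulus, and angiotensinogen is made mainly in the proximal tubule. The brush border of the proximal tubule carries angiotensin-converting enzyme, and podocytes and tubule cells carry aminopeptidase A, which removes the first residue of angiotensin II. Mesangial cells, which lie between the capillaries of the tuft, carry the type 1 receptor.

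Renin and its substrate moved in opposite directions, so the sequence before the start of each gene is shown, together with that of Enpep, which rose with Ren1. The sequences are those of RefSeq on GRCm38.p6, where 8 of the 9 genes had an entry, and each run ends at the base before the RefSeq start. Capitals mark the 6 letters TATAAA, the core of the TATA box, or TTTATA, the same letters on the other strand. Ren1 lies on chr1, and its window is chr1:133350424-133350673 on the plus strand. Agt lies on chr8 and its window is chr8:124569707-124569956 on the minus strand. Enpep lies on chr3 and its window is chr3:129332750-129332999 on the minus strand.
Ren1: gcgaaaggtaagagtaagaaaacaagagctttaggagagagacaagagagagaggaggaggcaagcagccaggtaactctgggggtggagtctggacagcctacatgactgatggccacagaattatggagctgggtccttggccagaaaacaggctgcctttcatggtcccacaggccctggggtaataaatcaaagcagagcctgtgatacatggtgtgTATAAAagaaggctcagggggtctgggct
Agt: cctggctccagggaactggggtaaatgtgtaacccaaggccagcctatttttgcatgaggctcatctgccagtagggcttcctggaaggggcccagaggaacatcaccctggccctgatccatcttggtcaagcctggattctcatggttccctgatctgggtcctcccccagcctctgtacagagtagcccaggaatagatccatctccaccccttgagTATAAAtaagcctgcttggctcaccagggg
Enpep: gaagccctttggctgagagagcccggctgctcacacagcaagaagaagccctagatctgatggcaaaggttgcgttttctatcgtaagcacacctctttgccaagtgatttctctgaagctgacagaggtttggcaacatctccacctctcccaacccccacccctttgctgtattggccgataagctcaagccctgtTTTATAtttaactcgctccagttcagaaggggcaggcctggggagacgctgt

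TATAAA began 29 bases before the start of Ren1 and 30 bases before that of Agt, on the strand of the gene. In Enpep it lay on the other strand, 52 bases before the start. Of the 8 genes with an entry, 3 (Ren1, Agt and Agtr1b) held it on the strand of the gene, against 7.59% of all 32851 promoter windows of 250 bases. On either strand, 12.4% of all windows held it. The 2 further motifs TGACG, a part of the cAMP response element, and CCAAT were searched on both strands. The motifs did not overlap each other in the windows shown, and TGACG was not in the windows of Ren1, Agt or Enpep. CCAAT was in that of Enpep, on the other strand. They occurred in 17.8% and 33.8% of all windows. A match is a description of the letters. In the GENCODE M21 annotation of the same build, the Ren1 gene runs from 133350510 to 133360325 and so begins inside this window.

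Levels are given in FPKM, which scales fragments for gene length and library total and so allows genes to be compared. Enpep stood highest in both groups, followed by Agtr1a, and 6 of the 9 genes averaged at least 0.5 FPKM over all libraries, the level at which a gene was tested. Ren1 and Atp6ap2 came after Agtr1a, then Ace and then Agt, and these steps held in all 10 libraries without overlap within a group. Ren1 and Atp6ap2 overlapped in wild type, where Atp6ap2 was the higher in 2 of 5 libraries, whereas Ren1 was above Atp6ap2 in all 5 G799R libraries. The remaining receptor genes, Mas1, Agtr1b and Agtr2, were near 0, below Agt in every library. Neighbours in their order overlapped in both groups.

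**Figure D1:**
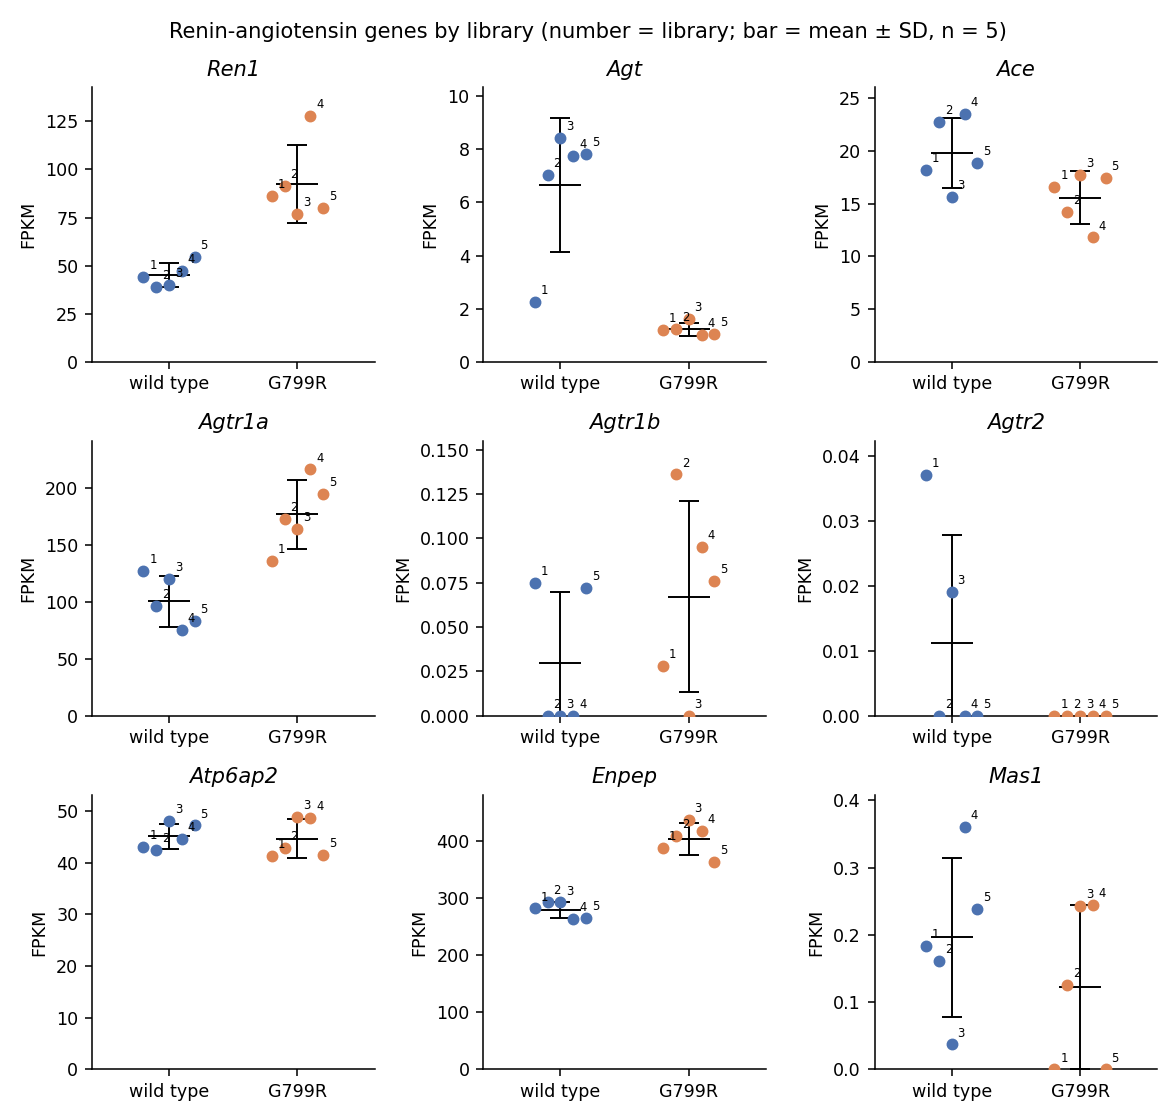
FPKM of each of the 9 genes (vertical axes, from 0, a separate scale per gene) in 5 wild-type and 5 G799R libraries; each point is a library, numbered as in its label, and bars give mean ± SD. Ren1, Agtr1a and Enpep are higher in every G799R library than in any wild-type library and Agt is lower, while Atp6ap2 and Ace overlap.

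Ren1, the gene of renin (ENSMUSG00000070645), was at 44.1, 39.1, 39.9, 47.1 and 54.7 FPKM in wild-type libraries 1 to 5. It was at 86.3, 91.4, 76.9, 128 and 79.9 FPKM in G799R libraries 1 to 5. Every G799R library was above every wild-type library, and G799R library 4 stood above the other four. The group means were 45.0 ± 6.31 and 92.4 ± 20.5 FPKM (SD, n = 5 each), a 2.05-fold difference. The log2 difference, which is G799R minus wild type on the log2(FPKM + 1) scale unless a ratio is named, was 1.01 ± 0.14 (SE; limma adjusted p = 1.1e-04). Of the 13117 genes tested, 59.8% were called (limma adjusted p under 0.05), 40.5% higher and 19.3% lower, so a call on its own is common in these data. Some mouse strains carry Ren2, a near-identical copy of Ren1, which was not analysed here, and if these mice carry it, its reads cannot be told apart from those of Ren1.

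Agt, the gene of angiotensinogen (ENSMUSG00000031980), was lower in G799R. It was at 2.26, 7.04, 8.42, 7.74 and 7.82 FPKM in wild-type libraries 1 to 5 and at 1.19, 1.23, 1.62, 1.01 and 1.06 FPKM in G799R. The groups did not overlap, although wild-type library 1 lay much closer to the G799R libraries than to the other wild-type ones. The mean fell from 6.66 ± 2.50 to 1.22 ± 0.24 FPKM (SD, n = 5 each), which is 5.45-fold lower, or 6.35-fold lower without wild-type library 1. The log2 difference was −1.70 ± 0.26 (SE; limma adjusted p = 2.2e-04), and −1.98 without that library. With a pseudocount of 0.1 in place of 1 it was −2.24, since the pseudocount of 1 is as large as the G799R level. This difference was the largest among the 6 tested genes.

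Ace encodes angiotensin-converting enzyme (ENSMUSG00000020681). Its level was 18.2, 22.8, 15.7, 23.5 and 18.9 FPKM in wild type and 16.6, 14.2, 17.7, 11.8 and 17.4 FPKM in G799R. The groups overlapped, with wild-type library 3 below 3 of the 5 G799R libraries. The log2 difference was −0.33 ± 0.13 (SE), and its limma adjusted p of 0.0481 lay just under the threshold. The call was lost in 7 of the 10 fits that left out 1 library (wild-type 1, 2, 4 or 5 or G799R 1, 2 or 4), where the adjusted p ran from 0.0201 to 0.113 over all 10. It was also lost without G799R libraries 3 and 4 together (−0.27, adjusted p = 0.11).

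Enpep, the gene of aminopeptidase A (ENSMUSG00000028024), rose. It was at 282, 294, 293, 263 and 265 FPKM in wild type and at 389, 409, 437, 418 and 364 FPKM in G799R. The groups were far apart for their spread, with coefficients of variation of 5.28% in wild type and 6.96% in G799R, the smallest among the 6 tested genes. The mean rose 1.44-fold, from 279 ± 14.8 to 403 ± 28.1 FPKM (SD, n = 5 each; log2 difference 0.53 ± 0.07 SE, limma adjusted p = 1.3e-04). In wild type the gene was above 99.3% of all tested genes.

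Agtr1a, one of a pair of mouse genes for the type 1 angiotensin II receptor (ENSMUSG00000049115), rose as well. It was at 127, 96.3, 120, 75.2 and 82.9 FPKM in wild type and at 136, 173, 164, 216 and 195 FPKM in G799R. The highest wild-type library, library 1, came close to the lowest G799R library, also library 1, but the groups did not overlap. The mean was 1.76-fold higher, at 177 ± 30.6 against 100.3 ± 22.7 FPKM (SD, n = 5 each; log2 difference 0.82 ± 0.16 SE, limma adjusted p = 0.0012). Agtr1b, its close copy, was listed at 0 in 3 wild-type libraries and 1 G799R library and reached at most 0.075 and 0.136 FPKM. Of all stretches of 50 bases in the GENCODE Agtr1a transcripts, 1.13% also occur in those of Agtr1b, and the longest identical run is 66 bases.

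Agtr2, the type 2 receptor gene, was listed at 0 in all 5 G799R libraries and in 3 wild-type libraries, and the highest value was 0.037 FPKM in wild-type library 1. Mas1, a receptor gene for angiotensin 1-7, was at 0.183, 0.161, 0.037, 0.360 and 0.239 FPKM in wild type and at 0, 0.126, 0.243, 0.245 and 0 FPKM in G799R. These ranges overlapped. None of Agtr1b, Agtr2 and Mas1 reached the level for testing. In a fit of all 17649 genes with any value above 0, of which 46.0% were called, their limma adjusted p-values were 0.32, 0.47 and 0.42. Differences of receptors other than Agtr1a were not detectable at these levels.

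Atp6ap2 encodes the prorenin receptor, which binds renin and prorenin and is also an accessory part of the proton pump of acidic organelles (ENSMUSG00000031007). It was at 43.1, 42.6, 48.1, 44.6 and 47.2 FPKM in wild type and at 41.4, 42.9, 48.8, 48.6 and 41.5 FPKM in G799R. The ranges covered each other almost fully. The log2 difference was −0.02 ± 0.07 (SE; limma adjusted p = 0.84), so the gene was not called.

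In counts, 3 of the 6 tested genes were called higher, 2 were called lower and 1 was not called, against 40.5% and 19.3% called higher and lower among all tested genes. The groups did not overlap for 4 of these 6 genes, against 41.8% of all tested genes. The median log2 difference of the 6 genes was 0.26, and that of all tested genes 0.17. With 6 genes these counts are a description, and nothing particular to the set is read from them.

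The cell type markers of the libraries differed between the groups. Markers of the proximal tubule were lower in G799R for all 24 tested genes (median log2 difference −2.87), and those of distal tubule and collecting duct for all 20 (median −2.12). All 19 podocyte markers rose (median 0.68), as did 15 of 19 endothelial markers and 10 of 17 of mesangial and smooth muscle cells (medians 0.64 and 0.75). Among all tested genes 40.5% were called higher and 19.3% lower. Cubn, of the proximal tubule, was 9.55-fold lower, and the podocyte gene Kirrel rose 1.77-fold. The mesangial genes Pdgfrb and Serpine2 rose 2.21-fold and 2.29-fold. The summed level of the proximal tubule list was 8419 to 15675 FPKM in wild type and 997 to 2654 in G799R. That of the mesangial list was 842 to 1500 FPKM in wild type and 2027 to 3115 in G799R. The tubule score, the mean log2(FPKM + 1) of 45 tubule markers, was 6.11 ± 0.29 for wild type against 3.68 ± 0.41 for G799R. The glomerular score of 55 podocyte, endothelial and mesangial markers was 5.99 ± 0.23 and 6.65 ± 0.07 (SD, n = 5 each; exact two-sided permutation p = 0.0079 for both, the smallest that 5 against 5 allow). The score of the 17 mesangial and smooth muscle markers alone was 5.07 ± 0.32 and 5.71 ± 0.20 (SD, n = 5 each; exact two-sided permutation p = 0.016). Here the groups overlapped, with wild-type library 1 at 5.52 and G799R library 1 at 5.42. In bulk samples such as these, fewer cells of a type and less RNA per cell cannot be told apart. No marker of these lists was at 0 in all libraries, and no member was used in a score.

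To read each member against its neighbours, libraries were rescaled so that a marker score was equal in all of them. With the glomerular score equal, none of the 6 genes was called higher (4.15% of all tested genes were). Ren1 stood at 0.34 ± 0.17 (SE; limma adjusted p = 0.084), Agtr1a at 0.15 ± 0.12 (0.27) and Enpep at −0.15 ± 0.11 (0.26). Agt, Ace and Atp6ap2 were called lower at −2.18, −0.97 and −0.68, where 63.0% of all tested genes were called lower and their median was −0.41. With the mesangial score alone set equal, Ren1 and Agtr1a, whose cells lie beside or within the mesangium, differed by 0.33 ± 0.20 and 0.14 ± 0.15 (SE; adjusted p = 0.16 and 0.42). Under that scaling 3.1% of all tested genes were called higher and 47% lower. Relative to these markers no call remained for the 3 genes that rose, which does not show that they were unchanged.

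With the tubule score equal, Agt was the only one of the 6 genes that was not called, at 0.32 ± 0.27 (SE; limma adjusted p = 0.25). The other 5 were called higher by 2.28 (Ace) to 3.72 (Ren1), as were 94.3% of all tested genes, whose median was 2.57. On that scale Agt was at 2.53 ± 0.77 FPKM in wild-type libraries against 3.38 ± 0.90 in mutant ones (SD, n = 5 each). Ace did not follow the tubule markers. Ace was 1.27-fold lower in FPKM as deposited, and no tested marker on the proximal tubule list fell by less than 1.87 on the log2 scale. Bulk libraries do not show which cells the Ace RNA came from. Under median-of-ratios scaling, which sets the median gene near 0, Ren1, Agtr1a and Enpep stayed called higher (0.83, 0.65 and 0.35) and Agt and Ace lower (−1.82 and −0.50), where 23.3% of all tested genes were called higher and 25.5% lower.

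**Figure D2:**
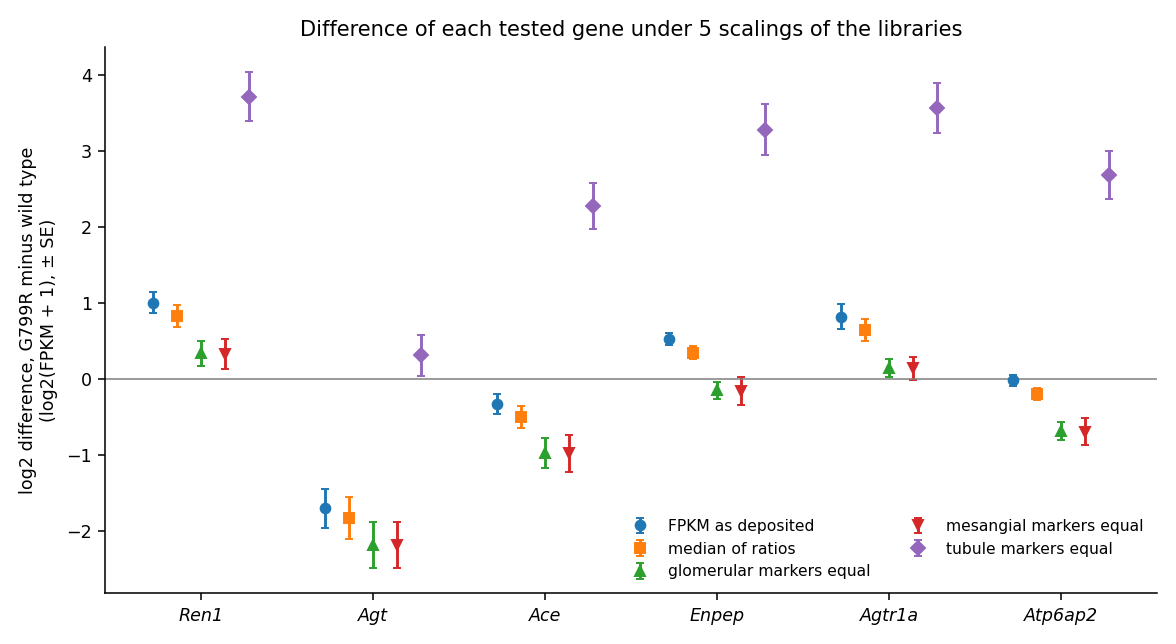
Log2 difference between G799R and wild type (vertical axis, log2(FPKM + 1), points ± SE) of the 6 tested genes under 5 scalings of the 10 libraries. Agt lies at −1.70 as deposited and at 0.32 once tubule markers are equal, while Ren1, Agtr1a and Enpep lie between −0.16 and 0.34 once glomerular or mesangial markers are equal.

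A ratio of 2 genes within a library does not depend on a factor applied to the whole library. The ratio of Ren1 to Agt was 19.5, 5.55, 4.74, 6.09 and 6.995 in wild-type libraries 1 to 5 and 72.5, 74.5, 47.6, 126 and 75.6 in the G799R libraries. The log2 of this FPKM ratio, taken with no pseudocount, was higher by 3.36 ± 0.43 (SE) in G799R. The ratio of Ren1 to Ace rose from 1.72 to 2.89 in wild type to 4.33 to 10.8 in G799R, with no overlap. Against Agtr1a, in contrast, Ren1 was at 0.332 to 0.659 in wild type and 0.410 to 0.634 in G799R, ranges that overlap almost fully (log2 difference 0.19 ± 0.24 SE). Ren1 against Enpep ran from 0.133 to 0.207 and from 0.176 to 0.305, with overlap (0.50 ± 0.17). The ratio of Agtr1a to Enpep overlapped as well (0.30 ± 0.17).

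Over all 15 pairs of the 6 tested genes, 11 had ratios that did not overlap between the groups. The 4 that overlapped were the 3 pairs among Ren1, Agtr1a and Enpep and the pair of Ace and Atp6ap2. For comparison, the ratio to Ren1 did not overlap for 60.5% of all tested genes, that to Agt for 79.0%, that to Ace for 36.2%, that to Agtr1a for 34.8%, that to Atp6ap2 for 32.9% and that to Enpep for 40.1%. These pairs were chosen with the differences of the genes known, and no test was applied to them. The ratio of Ace to Enpep, the peptidase that completes angiotensin II and the one that removes its first residue, was 0.0536 to 0.0895 in wild type and 0.0283 to 0.0479 in G799R.

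**Figure D3:**
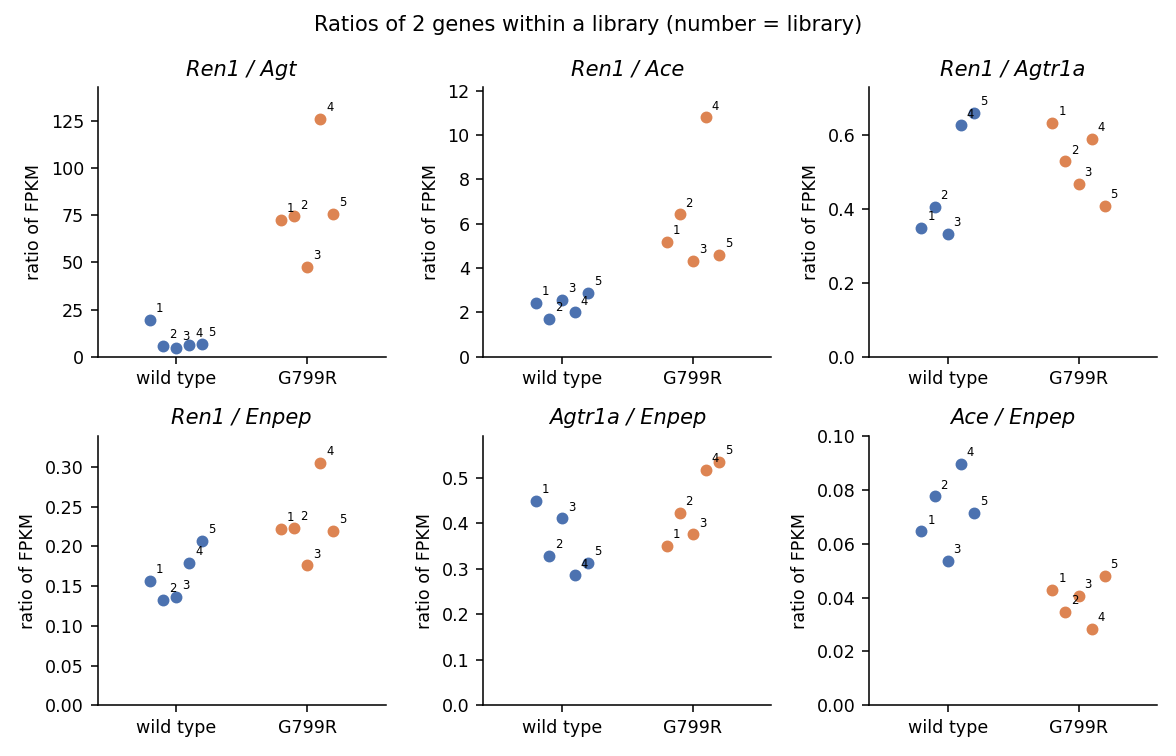
Ratio of FPKM of 2 genes (vertical axes, from 0) in each of 5 wild-type and 5 G799R libraries; points are libraries, numbered as in their labels. Ren1 against Agt and against Ace separates the groups, while Ren1 against Agtr1a overlaps at 0.332 to 0.659 and 0.410 to 0.634.

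Within the groups, the genes that followed each member most closely from library to library were listed. For each of the 6 genes, Pearson's r was taken between deviations of log2(FPKM + 1) from the group means over the 10 libraries, with 9332 candidate genes of at least 5 FPKM. These r describe the top of a long list over 10 libraries, so high values can arise by chance, which was not tested. They also share the libraries and their composition. Agtr1a was followed most closely by Des, which encodes the intermediate filament protein desmin (r = 0.98, and 0.99 without wild-type library 4, the library in which Agtr1a lay farthest from its group mean). Adprh (0.97) and Myl12a, a myosin light chain gene (0.97), came next. Des, which also stands on the mesangial list, was at 32.3 to 60.9 FPKM in wild type and 63.9 to 121 FPKM in G799R, and its order over the G799R libraries, lowest in library 1 and highest in library 4, was that of Agtr1a.

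Enpep was followed by Lmx1b, a transcription factor gene of podocytes (r = 0.96), by Col4a4, the alpha 4 chain of type IV collagen (0.96), and by Nxph3 (0.93). All 3 were called higher in G799R, with log2 differences of 0.60, 0.54 and 0.76 beside 0.53 for Enpep. Agt was followed by Rhobtb1 (0.97), Eva1a (0.96) and Bpnt1 (0.93). In wild-type library 1 these 3 genes were at 3.70, 6.81 and 28.8 FPKM, below the 9.51 to 12.5, 13.2 to 16.1 and 51.1 to 57.4 FPKM of the other wild-type libraries. These genes were chosen by an r to which that library adds much, so their low values there are no separate finding, and without it the r was 0.84, 0.79 and 0.72. The tubule score of wild-type library 1 was 5.61, the lowest of its group, where the others had 6.11 to 6.38. Cyp4a14, a fatty acid hydroxylase gene (named with its values known), was at 1.23 FPKM in that library, against 59.2 to 140 in the other wild-type libraries and at most 1.10 in G799R. The part of these differences in the low Agt value was not tested.

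For Ren1 the closest were Tma7 (r = 0.90), Tmem258 (0.89) and Mrpl23 (0.87), none of them called between the groups. Without G799R library 4, where Ren1 lay farthest from its group mean, the r was 0.78, 0.90 and 0.71. Ace was followed by Evi5 (0.90), Tm7sf3 (0.89) and Acad10 (0.89), all called lower. Atp6ap2 was followed by Ddost, a subunit of the enzyme that attaches sugar chains to proteins (0.96), Pnpt1 (0.92) and Apmap (0.92). No 2 of the 6 members shared a gene among their closest 3. Among the members themselves, r ran from −0.65 (Ace and Agtr1a) to 0.51 (Atp6ap2 and Enpep), and that of Ren1 and Agtr1a was 0.04.

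**Figure D4:**
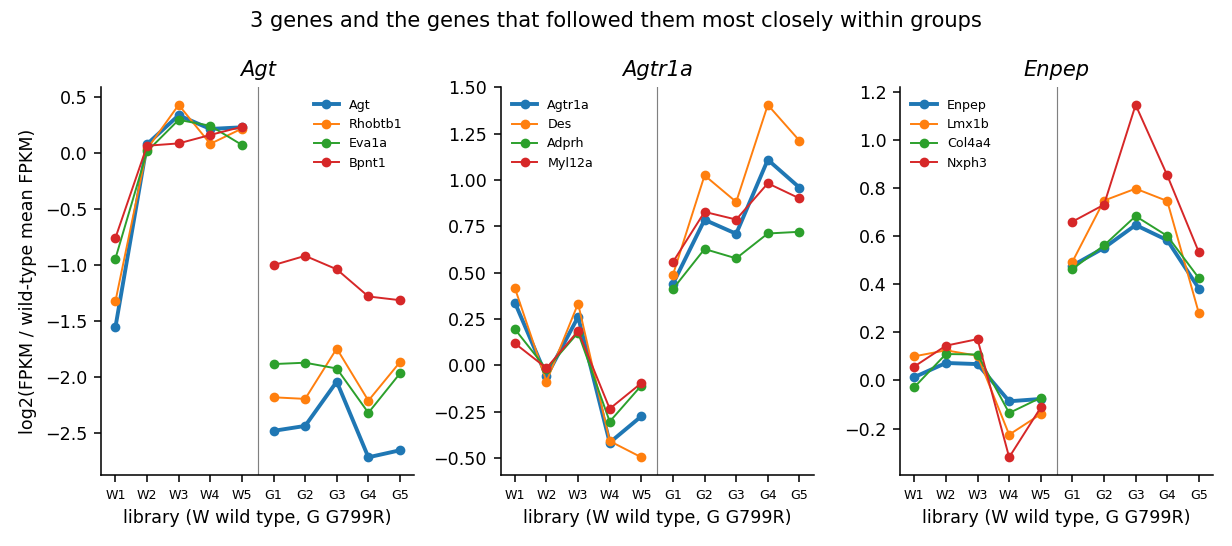
Log2 of FPKM over the wild-type mean (vertical axes) in each library (W1 to W5 wild type, G1 to G5 G799R) for Agt, Agtr1a and Enpep and the 3 genes with the highest r to each within groups; lines join libraries of a group only to guide the eye. Agt and its 3 genes are all low in W1, and Des and Agtr1a both have their G799R low in G1 and high in G4.

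The other genes of the pathway were read from fixed lists. Among 17 genes of further angiotensin peptidases and receptor adaptors, 13 were tested, of which 6 fell and 2 rose (median −0.15). Of all tested genes 19.3% were called lower and 40.5% higher. Anpep, the gene of aminopeptidase N, a brush border enzyme, was 3.38-fold lower, Nln, the gene of neurolysin, 1.73-fold lower and Agtrap, whose product binds the type 1 receptor, 1.57-fold lower. Mme, the gene of neprilysin, which can make angiotensin 1-7 from angiotensin I, rose 1.27-fold, from 69.9 ± 4.64 to 88.9 ± 6.53 FPKM (named with its values known). Cma1, Cpa3 and Ctsg, mast cell and neutrophil proteases that can make or trim angiotensins, and Mrgprd were all under the level for testing. With the glomerular score equal all 13 were called lower, Mme included, as were 63.0% of all tested genes. Under median-of-ratios scaling 7 were called lower and 0 higher by limma, against 25.5% and 23.3% of all tested genes.

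Of 18 genes of receptor coupling, the G proteins, phospholipases, arrestins and kinases downstream of the type 1 receptor, 13 rose and 0 fell by limma (median 0.37). Among all tested genes 40.5% were called higher and 19.3% lower. Arhgef1, an exchange factor gene, rose 1.46-fold and Plcb3, a phospholipase gene, went from 28.2 to 42.3 FPKM. Rhoa, a small GTPase gene, rose from 182 to 237 FPKM and the G protein gene Gna11 from 36.3 to 47.3 FPKM. Rgs5 was lower but not called, at 43.9 ± 13.0 and 31.0 ± 8.14 FPKM (limma adjusted p = 0.056; named with its values known). With the glomerular score equal 10 of the 18 were called lower and 0 higher by limma, with a median of −0.28. Among all tested genes 63.0% were then called lower and 4.15% higher, with a median of −0.41. Under median-of-ratios scaling 10 were called higher and 1 lower (median 0.20), against 23.3% and 25.5% of all tested genes.

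Of the 18 tested genes of the renin cell programme, 12 rose and 0 fell by limma (median 0.38), against 40.5% and 19.3% of all tested genes. Ptger4, the prostaglandin E2 receptor through which renin release is stimulated, had the largest rise, from 18.6 ± 3.56 to 39.2 ± 1.95 FPKM (SD, n = 5 each; 2.11-fold, limma adjusted p = 2.0e-05), and the groups did not overlap. Npr1, a natriuretic peptide receptor gene, rose 1.84-fold, Foxd1, a factor of the stromal lineage that gives rise to renin cells, 1.67-fold, and Pde3a, a phosphodiesterase gene, 1.63-fold. Akr1b7, an enzyme found in renin cells, missed the threshold at 5.66 ± 1.48 and 6.62 ± 1.10 FPKM (adjusted p = 0.26). Adrb1, an adrenergic receptor gene, was lower but not called, at low levels of 0.76 ± 0.35 and 0.36 ± 0.18 FPKM (limma adjusted p = 0.054). With the glomerular score equal 1 of the 18 was called higher and 8 lower (median −0.23), against 4.15% and 63.0% of all tested genes. Under median-of-ratios scaling 10 were called higher and 1 lower (median 0.22), against 23.3% and 25.5%. Several of these genes are also expressed in mesangial or endothelial cells, whose markers were higher in the same libraries. Podocyte markers were higher as well (median log2 difference 0.68, beside 0.65 for Foxd1). Which cells gave each rise was not tested. Arteriolar smooth muscle, which lies next to the renin cells, had 2 of 7 tested markers called higher and a median of 0.10 (−0.06 under median-of-ratios scaling). Most of these markers, Des, Cnn1, Tagln, Myh11 and Acta2, also stand on the mesangial list, and the difference between the lists was not tested. Acta2 was at 28.6 and 29.0 FPKM and Myh11 at 9.84 and 10.2, and neither was called (adjusted p = 0.80 and 0.76). The part of cell composition in the rise of Ren1 was not tested beyond these scalings. Akr1b7, Adrb1, Acta2, Myh11 and Ptgs2 are named with their values known.

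Genes of the macula densa, the tubule cells that signal to the renin cells, did not all move alike. Of 5 tested genes 3 fell, led by Slc12a1, the sodium, potassium and chloride cotransporter gene, which was 7.83-fold lower, Ptges (4.67-fold) and Pappa2 (4.53-fold). The folds of Ptges and Pappa2 rest on low levels, 2.35 and 1.05 FPKM in wild type and 0.50 and 0.23 in G799R. For Pappa2 the groups overlapped. Ptgs2, the gene of cyclooxygenase 2, missed the threshold at 1.90 ± 0.67 and 2.70 ± 0.65 FPKM (adjusted p = 0.091). Avpr1a was not called either, at 4.32 ± 2.17 and 5.35 ± 3.31 FPKM (limma adjusted p = 0.73; named with its values known). Of the 12 genes of the aldosterone response, 9 fell and 1 rose (median −1.93). Among all tested genes 19.3% were called lower and 40.5% higher. Atp1b1, a subunit of the sodium pump, was 5.12-fold lower, Scnn1b, a subunit of the epithelial sodium channel, 5.08-fold and Nedd4l, which marks that channel for removal, 1.83-fold. Sgk1, the only one called higher, rose 1.53-fold to 338 FPKM (named with its values known). Tsc22d3 and the aldosterone receptor gene Nr3c2, also named with their values known, were not called (limma adjusted p = 0.73 and 0.74). With the glomerular score equal 0 of the 12 genes were called higher and 11 lower, where 63.0% of all tested genes were called lower. All 4 tested genes of the kallikrein and kinin system fell, among them Klk1 (10.2-fold), Kng2 (5.29-fold), Kng1 (4.14-fold) and Cpe (1.88-fold). The fold of Kng1 rests on low levels, 0.88 FPKM in wild type and 0.21 in G799R. Klk1, Kng1 and Kng2 belong to families of similar genes that may share reads, which makes each value uncertain. Slc12a1, Scnn1b and several others of these genes also stand on the distal tubule list, and the G799R libraries had the lower tubule score throughout. With the tubule score equal, 2 macula densa, 7 aldosterone response and 1 kallikrein and kinin gene were called higher and 0 lower. Under that scaling 94.3% of all tested genes were called higher. Genes in that score are held near equal by construction.

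Atp6ap2 was also read beside the proton pump. Of 15 other subunits 9 fell, 1 rose and 5, like Atp6ap2, were not called (median −0.46). Among all tested genes 19.3% were called lower and 40.5% higher. Atp6v1a and Atp6v1b2, subunits of the catalytic part, were 2.23-fold and 2.19-fold lower. Atp6v1e1 was 1.62-fold lower. Atp6v0c fell from 226 to 150.3 FPKM. Atp6ap1, the other accessory subunit, was at 127 ± 4.87 and 138 ± 5.95 FPKM (SD, n = 5 each; adjusted p = 0.11), not called, and is named with its values known. Once the glomerular score was equal, Atp6ap2 and all 15 genes of the list were called lower, as were 63.0% of all tested genes.

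**Figure D5:**
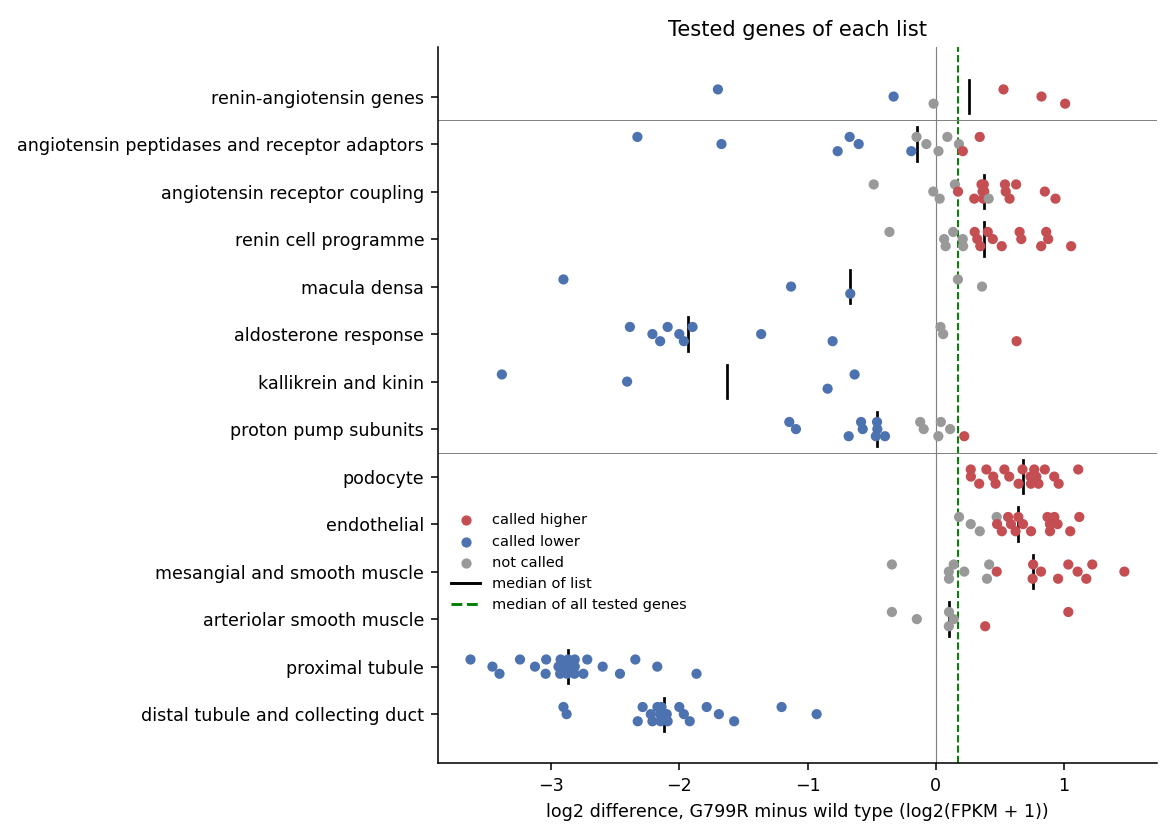
Log2 difference between G799R and wild type (horizontal axis, log2(FPKM + 1)) of the tested genes of each list; points are genes, coloured by their call at an adjusted p under 0.05, black bars are list medians and the dashed line is the median of all tested genes (0.17). The renin-angiotensin genes spread from −1.70 to 1.01. Their range overlaps the distal tubule and collecting duct list on the left and the podocyte, endothelial and mesangial lists on the right.

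The FPKM of a library added up to 320720 to 340875, which does not give its absolute depth. Low values gave a relative depth of 0.860 to 1.19 times that of wild-type library 1. Markers of macrophages rose for 9 of 14 tested genes (median 0.91), against 40.5% of all tested genes. The interferon-induced gene Irf7 was at 768 and 384 FPKM in G799R libraries 3 and 4, against at most 89.6 in the other 8 (named with its values known). Without these 2 libraries Ren1, Agtr1a and Enpep remained higher (0.93, 0.75 and 0.47) and Agt lower (−1.73).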

How the data were processed

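The authors deposited 1 table of FPKM values for 22053 Ensembl identifiers, with a column for each of the 10 libraries, named in that library's label, and 0 columns of other samples. The tools named, without role or order, are RSEM, HISAT2, StringTie 1.3.1, Bowtie2 2.2.8 and fastp 0.18.0, per the submitters' processing notes. No source used here names the build or annotation. FPKM is relative, so a larger share of RNA from 1 cell type lowers the values of genes of the others. Symbols were found for 21963 identifiers, and positions come from GENCODE M21 (GRCm38).

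FPKM was transformed to log2(FPKM + 1), and limma-trend (R 4.3.3, limma 3.58.1; two-sided, no covariates) was run on the 13117 genes that averaged 0.5 FPKM or more. P-values were adjusted over all tested genes by the Benjamini-Hochberg method, with a threshold of 0.05. Folds are ratios of mean FPKM. The test was checked on simulated data in which few genes changed and cell composition did not. The check does not cover differences as broad as those between these groups.

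The members, lists and tests were chosen with earlier results of these data known. Named were all members, up to 4 genes per pathway list and 2 per marker list (proximal tubule, podocyte, mesangial) with the smallest p, and the 3 genes closest to each member of at least 1 FPKM. A few genes that this rule names are not reported here. Genes outside this rule were chosen after seeing their values, which is said beside them. Replicate numbers do not pair the libraries (no shared source is labelled).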

Additional observations from a re-analysis of the deposited data

Results flagged for a closer look

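Within groups of 5 libraries, a library was picked out when its gap to the nearest other exceeded 0.71 of the group's range, and 23 groups of values were examined, of which chance picks out about 1 in 20. Agt in wild-type library 1 was at 2.264 FPKM, where the next lowest wild-type library had 7.042 FPKM (gap 0.776 of the range). Ren1 in G799R library 4 was at 127.724 FPKM, where the next highest had 91.439 FPKM (gap 0.714 of the range).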

How the results depend on the processing

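Leaving out each library in turn kept the direction and call of Ren1, Agt, Agtr1a and Enpep in all 40 fits (highest adjusted p 0.0040). Genes called then ranged from 4614 to 5580 higher and 2396 to 2585 lower, and of the members 3 stayed higher and 1 to 2 were lower. Ranges of log2 differences were −0.41 to −0.24 for Ace and −0.050 to 0.0084 for Atp6ap2, whose sign was positive without wild-type library 3 (0.0056) or G799R library 1 (0.0084) or 5 (0.0077). The tubule score difference ranged from −2.55 to −2.31, the glomerular from 0.57 to 0.72 and the mesangial from 0.54 to 0.75.

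Scaling moved the counts most. Over all genes, 3057 were higher and 3341 lower under median-of-ratios scaling, 545 and 8258 with glomerular markers equal, 407 and 6163 with mesangial markers equal, and 12364 and 48 with tubule markers equal, against 5308 and 2537 as deposited. Members higher numbered 3 as deposited, 0 with glomerular or mesangial markers equal and 5 with tubule markers equal, where 0 were lower. Enpep turned to −0.15 and −0.16 with glomerular and mesangial markers equal. With tubule markers equal, Agt turned to 0.32, Ace to 2.28 and Atp6ap2 to 2.68. Each of these scalings sets a marker score equal by construction.

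Ace lost its call, leaving 1 member lower, with no filter (adjusted p = 0.068), with limma without trend (0.055), without G799R libraries 3 and 4 (0.11; chosen after seeing the data) and with the replicate block (0.11). With the block, 4937 genes were higher and 2451 lower, with 3 members higher. The libraries share only a number, with r from −0.08 to 0.05 between same-numbered libraries. Pseudocounts of 0.1 and 0.5, a filter of 2 FPKM and quantile normalisation changed no call of a member. The deposited FPKM give no counts, which limits what can be said of Agtr1b, Agtr2 and Mas1.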
